A study of Mus musculus with 4 samples.

Results

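The genes described here are 10 transcription factors of mesenchymal cells, Twist1, Twist2, Snai1, Snai2, Zeb1, Zeb2, Prrx1, Tcf21, Tbx4 and Tbx5. They were chosen by name and not by a rule on their values, but with earlier results of these data known. They were read by 26 probe sets whose annotation names exactly one of them, out of 45037 probe sets and 18193 singly named genes on the array. Messenger RNA was measured on 4 single-colour Affymetrix whole-genome mouse arrays, 2 of Myc-depleted and 2 of control bronchoalveolar stem cells (BASCs). All cells came from lungs of ICR mice aged 4 to 6 weeks and were sorted as CD31 and CD45 negative, CD34 and Sca-1 positive, then plated on irradiated mouse embryonic fibroblasts. The Myc-depleted cells carried a lentiviral short hairpin RNA against c-Myc, and the study describes knockdown lines selected with puromycin over several generations. It used 2 hairpins with different target sites, and its account of the arrays does not say which applied to them. The controls carry the label control in the sample records and are called wild type in the study's account of the arrays. Whether they received a virus or the drug is not given for the arrays, so that infection and selection cannot be told apart from depletion. The study describes passaging both onto such feeder cells and onto dishes coated with collagen, and which applied to the arrays is not given. RNA from feeder fibroblasts, where any remained, cannot be told apart from that of the BASCs. Separate cultures behind the arrays of a group are not mentioned in any source. A p-value here is therefore set against differences between arrays that may be no more than technical.

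Some mesenchymal transcription factors, such as those of the Snai, Zeb and Twist families, can keep cells loosely attached and motile, and several of them repress epithelial genes. Snai and Zeb proteins bind short E-box sequences with zinc fingers and silence epithelial cadherin and junction genes together with corepressors. Twist and Tcf21 proteins are basic helix-loop-helix factors that bind E-boxes with an E protein partner and are held in check by Id proteins. In the developing lung, Tbx4, Tbx5 and Tcf21 are known as genes of the mesenchyme around the airways, whereas BASCs are held to be epithelial cells. Myc itself binds the E-box CACGTG together with Max.

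The sequence just upstream of the start site is shown for the 2 member genes whose window held any E-box, since E-boxes are the sites that both Myc and several of the members bind. Windows of 250 bases came from RefSeq (assembly GRCm38.p6) and covered 7 of the 10 genes in 10 windows. No window is given for Snai2, Zeb1 and Tbx5. Capitals mark every E-box (CANNTG), and both sequences run 5′ to 3′ on the plus strand, from chr2:167537945-167538194 for Snai1 and from chr11:85896515-85896764 for Tbx4.
Snai1: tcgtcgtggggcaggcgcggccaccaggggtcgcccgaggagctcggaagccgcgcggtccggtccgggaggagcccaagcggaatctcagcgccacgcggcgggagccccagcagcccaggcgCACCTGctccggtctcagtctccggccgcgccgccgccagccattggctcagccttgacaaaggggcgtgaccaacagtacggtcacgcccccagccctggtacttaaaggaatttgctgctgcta
Tbx4: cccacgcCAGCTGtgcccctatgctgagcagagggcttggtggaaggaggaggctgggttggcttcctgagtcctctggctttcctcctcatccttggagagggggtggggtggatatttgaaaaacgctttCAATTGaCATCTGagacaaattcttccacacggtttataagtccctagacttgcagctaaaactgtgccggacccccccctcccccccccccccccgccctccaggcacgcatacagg
The Snai1 window held one CACCTG, 126 bases before the start, which is the core of the E-box that Snai and Zeb proteins bind. CACCTG, on either strand and thus also as CAGGTG, was found in 1 of the 10 member windows and in 17.22% of all 32851 windows of this length. The Myc E-box CACGTG was in 0 member windows and in 6.02% of all windows, and CANNTG, of which both are special cases, was in 2 member windows and in 66.22% of all. These matches are descriptions of letters and are not evidence of binding.

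The label of the cells was set against defining markers before the members were read. A probe set was counted as above background on an array where its log2 value exceeded the 95th percentile of 81 probe sets for olfactory, vomeronasal and taste receptors, genes used in sensory tissue. That limit was 5.40 and 5.54 on the Myc-depleted arrays and 5.23 and 5.46 on the control arrays. Cdh1, the epithelial cadherin, stayed below it with 4.28 and 4.26 in Myc-depleted cells and 4.29 and 4.39 in control cells. The surfactant gene Sftpc, the club cell gene Scgb1a1, the lung epithelial factor Nkx2-1 and the sort marker Cd34 were likewise below it on all 4 arrays. RNA of these 5 markers of the labelled cells was thus not detected above background. Of 21 lung epithelial markers, Sftpc, Scgb1a1 and Nkx2-1 among them, 7 were above background on all arrays and 12 on none. Over all genes 58.3% were above it on all 4 arrays. Among the 7 markers, the highest values were those of Pdpn, 11.87 and 11.85 in Myc-depleted cells and 11.65 and 11.63 in control cells. Abca3 was next, at 7.87 and 7.71 against 7.44 and 7.50. Others were near the limit, such as Slc34a2 at 5.66 and 5.80 in Myc-depleted cells and 5.57 and 5.57 in control cells. Epcam was below the limit in one probe set and above it in the other, which gave 7.80 and 7.52 in Myc-depleted cells and 6.89 and 7.12 in control cells. In contrast, the intermediate filament gene Vim gave 14.39 and 14.43 in Myc-depleted cells and 14.53 and 14.48 in control cells, and the neural cadherin Cdh2 gave 10.43 and 10.15 against 10.29 and 10.06. Pecam1 and Ptprc, which encode the CD31 and CD45 that the sort removed, were below the limit on all 4 arrays, and Ly6a, the Sca-1 gene, is not analysed here.

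The arrays themselves fell into pairs that crossed the groups. The poly-A spike-ins, bacterial RNAs added before labelling, had a mean log2 difference between their 3′ and 5′ probe sets of 3.62 and 2.05 on Myc-depleted arrays 1 and 2, against 2.15 and 3.24 on control arrays 1 and 2. Myc-depleted 1 and control 2 therefore had weak 5′ signal, and their 18S ribosomal RNA signal (5′ probe set) was also high, at 9.31 and 8.90 against 6.87 on Myc-depleted 2 and 6.42 on control 1. Differences are given below also between arrays of like quality, that is Myc-depleted 1 minus control 2 and Myc-depleted 2 minus control 1. Myc, the depleted gene, gave 8.35 and 8.50 in Myc-depleted cells and 9.21 and 9.69 in control cells, a difference of -1.02 that left 49.2% of the control level (limma adjusted p = 0.363).

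Of the 10 transcription factors, 8 were above background on every array in both groups, and 2, Tcf21 and Tbx4, were above it on none. Counted by probe set, 17 of 26 were above background on all 4 arrays, 3 on 3 arrays and 6 on none. With the limit at the 90th percentile of the receptor probe sets the count on all 4 arrays was 19, and at the 99th percentile it was 17. Over all 18193 genes 58.3% were above background on all 4 arrays. A gene counts here by its probe set with the highest mean level, and since probe sets differ in brightness these counts do not rank the genes.

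**Figure D1:**
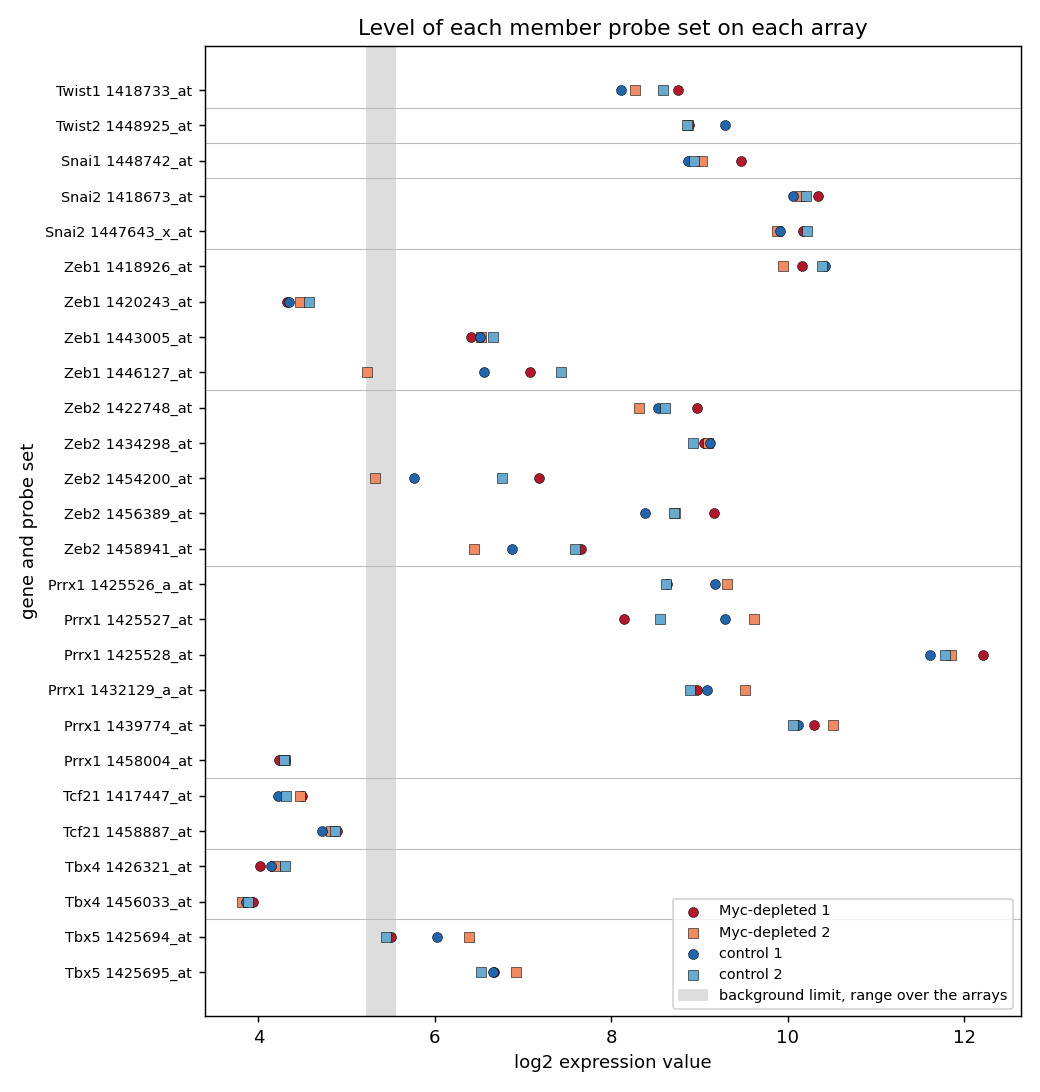
Log2 expression value (horizontal axis) of each of the 26 member probe sets (rows) on the 2 Myc-depleted (red and orange) and 2 control (blue) arrays; each point is 1 array and the grey band spans the background limits of the 4 arrays, 5.23 to 5.54. The Tcf21 and Tbx4 probe sets lie left of the band on every array, and 17 probe sets lie right of their limits on all 4.

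The factors that can switch epithelial cells to a mesenchymal state, those of the Twist, Snai and Zeb families, were all present, and no difference between Myc-depleted and control cells passed the test in any of them. Twist1 gave 8.75 and 8.27 in Myc-depleted cells and 8.11 and 8.58 in control cells. Its groups overlapped, and the difference of 0.17 (SE 0.26, 95% interval -0.56 to 0.89, limma adjusted p = 0.903) was smaller than the gap between arrays of one group. Within arrays of like quality it was 0.17 and 0.16. Twist2, the paralog expressed in dermal and other mesenchyme, gave 8.89 and 8.87 in Myc-depleted cells and 9.29 and 8.86 in control cells. Control 1 stood above the other 3 arrays, and the difference of -0.20 (SE 0.19, 95% interval -0.72 to 0.32) had an adjusted p of 0.805 in limma. For Twist2 the differences within arrays of like quality had opposite signs, at 0.03 and -0.42.

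Snai1, the zinc finger repressor of epithelial cadherin, gave 9.47 and 9.03 in Myc-depleted cells and 8.87 and 8.94 in control cells. Both Myc-depleted arrays were above both control arrays, with Myc-depleted 2 only 0.09 above control 2. The difference of 0.35 (SE 0.19), or 1.27-fold, had a 95% interval of -0.18 to 0.87 and a limma adjusted p of 0.631. It was 0.53 and 0.17 within arrays of like quality. Snai2, its paralog in neural crest and fibroblasts, was read at 10.34 and 10.14 in Myc-depleted cells and at 10.06 and 10.20 in control cells by its first probe set, 1418673_at, so that the groups overlapped. Its probe sets differed by 0.11 (1418673_at) and -0.04 (1447643_x_at), with adjusted p of 0.876 and 0.968 in limma.

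Zeb1, a zinc finger and homeobox repressor of epithelial genes, was the only member with a probe set lower on both Myc-depleted arrays than on both control arrays. That probe set, 1418926_at, which derives from a RefSeq mRNA, gave 10.16 and 9.95 in Myc-depleted cells and 10.42 and 10.38 in control cells. The difference of -0.34 (SE 0.13, 95% interval -0.71 to 0.02), or 0.787 times the control level, had the smallest p of all tested member probe sets (limma unadjusted p = 0.0588, adjusted p = 0.517). It kept its sign within arrays of like quality, at -0.22 and -0.47. The other Zeb1 probe sets came from expressed sequence tags or a source the annotation does not give. Probe set 1443005_at differed by -0.12 with overlapping groups, and 1420243_at lay below background throughout. Probe set 1446127_at gave 7.08 and 5.24 in Myc-depleted cells and 6.56 and 7.43 in control cells, a difference of -0.84 with a 95% interval of -2.85 to 1.18, and Myc-depleted 2 was below background. It was highest on the 2 arrays with weak 5′ signal, and its value in a fit with the spike-ins as a covariate is given below.

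Zeb2, the paralog of Zeb1, had 5 probe sets that did not share a direction. In 1456389_at both Myc-depleted arrays, at 9.17 and 8.73, were above both control arrays, at 8.38 and 8.71, although Myc-depleted 2 exceeded control 2 by only 0.02. This difference was 0.40 (SE 0.22, limma adjusted p = 0.633), and those of 1422748_at, 1434298_at, 1454200_at and 1458941_at were 0.07, 0.05, -0.01 and -0.18 with overlapping groups. The spread within a group was largest in 1454200_at, which gave 7.18 and 5.32 in Myc-depleted cells and 5.77 and 6.76 in control cells, high on Myc-depleted 1 and control 2. Its differences within arrays of like quality had opposite signs, at 0.42 and -0.44.

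Prrx1, a paired-type homeobox factor of limb and craniofacial mesenchyme, was read by 6 probe sets, 5 of them above background on all arrays. In 1425528_at Myc-depleted cells gave 12.22 and 11.85 and control cells 11.61 and 11.78, and in 1439774_at they gave 10.30 and 10.52 against 10.11 and 10.06. In both, the Myc-depleted arrays were above the control arrays, by 0.34 (SE 0.18, 95% interval -0.16 to 0.84) and 0.32 (SE 0.14, 95% interval -0.05 to 0.70), with limma adjusted p of 0.618 and 0.545. The differences within arrays of like quality were 0.44 and 0.24 for the first and 0.24 and 0.41 for the second. The other probe sets above background, 1425526_a_at, 1425527_at and 1432129_a_at, differed by 0.07, -0.03 and 0.25. Their groups overlapped, and each was lowest on the arrays with weak 5′ signal, most of all 1425527_at with 8.15 and 9.62 in Myc-depleted cells and 9.29 and 8.55 in control cells. Within arrays of like quality 1425527_at differed in opposite directions, by -0.40 and 0.33. Averaged over its 5 tested probe sets Prrx1 differed by 0.19 (SE 0.21, limma adjusted p = 0.759).

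Of the factors known from lung mesenchyme, Tcf21 and Tbx4 lay below background and Tbx5 above it. Tcf21, a helix-loop-helix factor of lung and kidney mesenchyme, gave 4.49 and 4.47 in Myc-depleted cells and 4.23 and 4.31 in control cells by one probe set, and 4.89 and 4.83 against 4.73 and 4.87 by the other. Tbx4, a T-box factor of lung and hindlimb mesenchyme, gave 4.02 and 4.19 in Myc-depleted cells and 4.14 and 4.30 in control cells, and 3.94 and 3.81 against 3.86 and 3.88. All of these values lay below the background limit of their array, so they bound the levels and carry no difference. Tbx5, which is known for heart, forelimb and lung mesenchyme, was above background on all arrays in probe set 1425695_at, with 6.67 and 6.92 in Myc-depleted cells and 6.66 and 6.53 in control cells. Its groups did not overlap, although Myc-depleted 1 lay only 0.02 above control 1, and the difference was 0.20 (SE 0.15, 95% interval -0.20 to 0.61, limma adjusted p = 0.721). The second probe set of Tbx5, 1425694_at, was near background, at 5.50 and 6.39 in Myc-depleted cells and 6.03 and 5.45 in control cells.

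Across the members, 0 of the 20 tested probe sets were called by limma at an adjusted p under 0.05, 0 had an unadjusted p under 0.05, and 0 were called by an unmoderated linear model. Their adjusted p lay between 0.517 and 0.999. The remaining 6 probe sets were too dim to be tested. Over all 27022 probe sets tested the share called was 0%, with an unadjusted p under 0.05 in 10.1%, and with a fold above 2 as well in 1.17%, a rule that 0 members met. The groups did not overlap in 5 of the 20 with Myc-depleted cells higher, where the share over all probe sets was 22.5%, and in 1 of the 20 with Myc-depleted cells lower, where it was 18.5%. With 2 arrays against 2 an exact permutation test of a single probe set cannot give a two-sided p below 0.333. The median difference of the 20 was 0.07 (12 positive and 8 negative), beside 0.00 over all probe sets. Taken as 8 genes, each by its brightest tested probe set, the median was 0.136 (6 positive), beside 0.022 over all 12589 genes tested. It was 0.035 without Myc-depleted replicate 1 and 0.09 without control replicate 1. The median width of the members' 95% intervals was 1.14 on the log2 scale, so moderate changes in either direction were not detectable with this number of arrays.

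**Figure D2:**
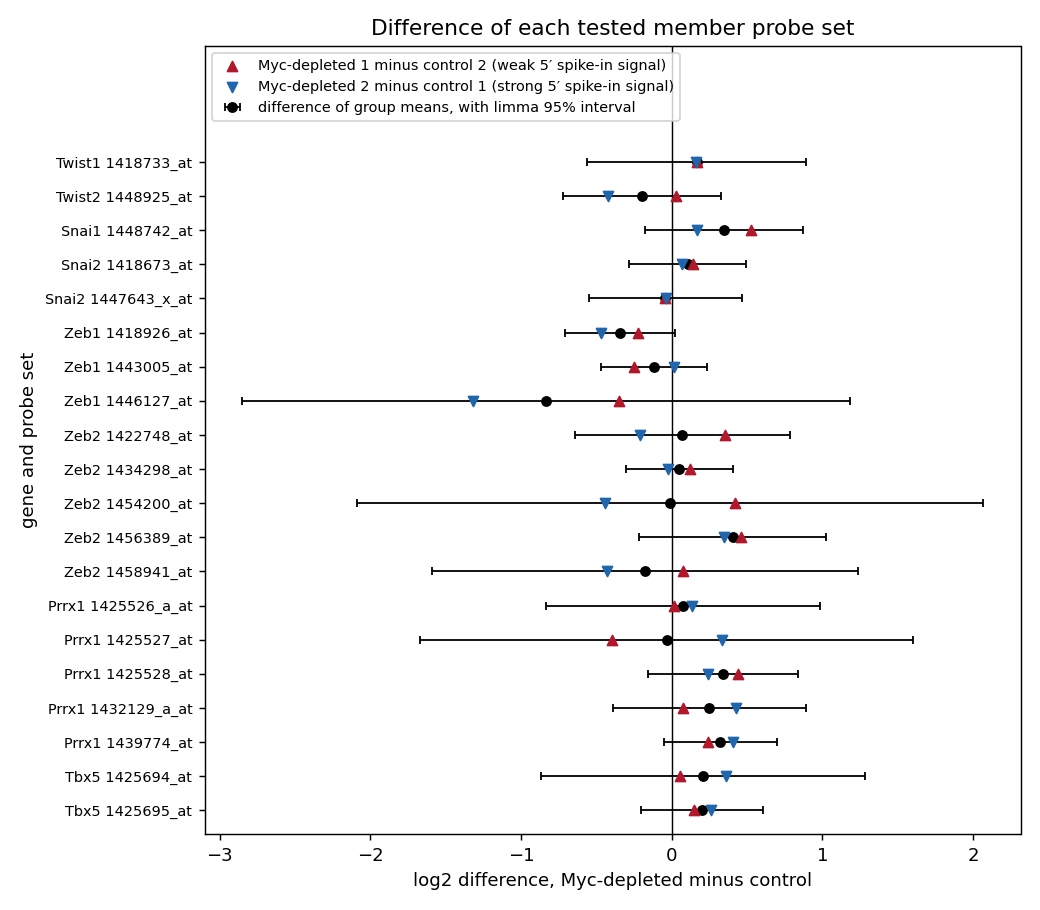
Log2 difference, Myc-depleted minus control (horizontal axis), of each of the 20 tested member probe sets (rows). Black points are differences of group means with limma 95% intervals, and triangles are the differences within arrays of like quality. Every interval includes 0, and the 2 triangles lie on the same side of 0 in 13 probe sets and on opposite sides in 7.

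The pairs of arrays of like quality also showed in the members' values, as they did over the whole array, and the cause was not tested. In 7 of the 20 tested, Myc-depleted 1 and control 2 were both above the other arrays, beside 24.2% of all probe sets tested, and in 5 both were below them, beside 22.2%. Actb, a gene with 3′ and 5′ control probe sets, had a 3′ minus 5′ difference of 1.95 and 0.69 on the Myc-depleted arrays and 0.60 and 1.36 on the control arrays, in the same order as the spike-ins apart from the pair with strong 5′ signal. With the mean spike-in difference as a covariate, which leaves 1 residual degree of freedom, Zeb1 1446127_at differed by -0.99. It was called (limma adjusted p = 0.0155), as 1 of the 20 member probe sets tested, where 2820 of all 27022 probe sets tested were called. Its adjusted p under the other alternatives lay between 0.418 and 1. In that fit Zeb1 1418926_at differed by -0.36 (adjusted p = 0.0906) and Snai1 by 0.32 (adjusted p = 0.129), against 0.442 to 1 and 0.337 to 1 under the other alternatives.

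**Figure D3:**
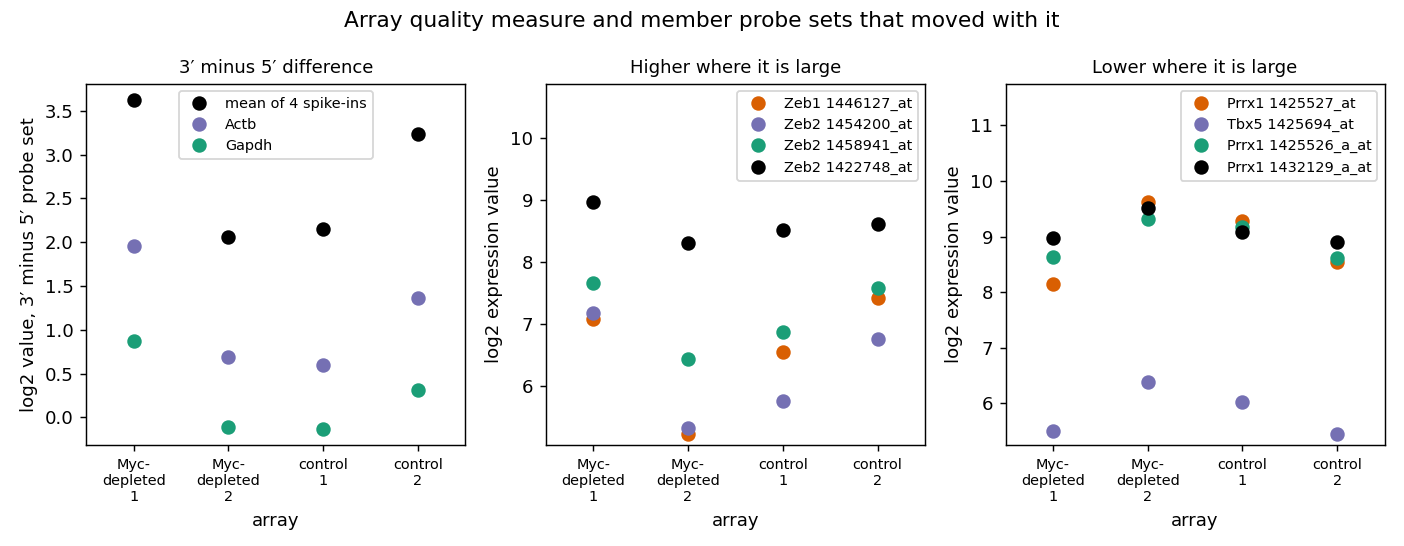
Left, log2 difference between 3′ and 5′ probe sets of the spike-ins and of Actb and Gapdh on each array; middle and right, log2 expression values of 8 member probe sets on the same arrays, with the Myc-depleted arrays on the left of each panel. The 4 probe sets in the middle panel are highest, and the 4 in the right panel lowest, on Myc-depleted 1 and control 2, where the spike-in difference is 3.62 and 3.24. The 8 were chosen for that pattern, as the widest-ranging 4 of 7 and 4 of 5 that showed it among the 20 tested.

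The partners of these factors were present throughout. All 7 genes for E proteins, which pair with Twist and Tcf21, and for Id proteins, which block that pairing, were above background on all arrays, of which limma called 0 and 2 had an unadjusted p under 0.05, beside 12.2% of all 12589 genes tested, the share against which such counts of the lists below are to be read. These were Id2, at 11.86 and 11.68 in Myc-depleted cells and 11.41 and 11.37 in control cells, and Id3, at 11.82 and 11.87 against 11.58 and 11.42, with adjusted p of 0.471 and 0.491 in limma. The E protein gene Tcf4 differed by -0.02. All 10 corepressor genes were above background, 8 of them with a negative difference and a median of -0.11, with 0 called by limma and 2 at an unadjusted p under 0.05. That median ranged from -0.179 without control replicate 1 to -0.073 without control replicate 2, and was -0.172 without Myc-depleted replicate 1. Among them, Ezh2, a histone methyltransferase, gave 9.96 and 9.88 in Myc-depleted cells and 10.36 and 10.33 in control cells, and Ctbp2, a corepressor that Zeb proteins bind, gave 10.03 and 10.11 against 10.54 and 10.43. Neither passed (limma adjusted p = 0.407 and 0.432).

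Genes of pathways known to induce the Snai, Zeb and Twist genes, not all of them inducers themselves, were also present. Of these, 19 of 19 were above background on all arrays, with 0 called by limma and 4 at an unadjusted p under 0.05. The transforming growth factor receptor genes Tgfbr2 and Tgfbr3 differed by 0.35 and 0.56, and the ligand gene Tgfb1 by -0.62. Met, the hepatocyte growth factor receptor, gave 7.02 and 6.89 in Myc-depleted cells and 7.88 and 7.56 in control cells, with an adjusted p of 0.378 in limma. The median difference of the 19 was 0.139, and it was -0.018 without Myc-depleted replicate 1, 0.018 without control replicate 1 and 0.214 without Myc-depleted replicate 2.

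Beside the members, 21 of 35 other mesenchymal transcription factor genes were above background on all arrays, and 0 of the 26 tested were called. Hoxb5, a homeobox gene of lung mesenchyme, gave 8.12 and 7.66 in Myc-depleted cells and 6.94 and 6.96 in control cells, a difference of 0.94 with a limma adjusted p of 0.375. Foxc1 differed by 0.52, Hoxa5 by 0.38 and the lung mesenchyme factor Foxf1 by 0.35, with 7.88 and 7.92 in Myc-depleted cells and 7.59 and 7.51 in control cells. The list median was 0.115 (0.046 without control replicate 1), beside 0.136 for the members, and 4 genes had an unadjusted p under 0.05. Of the 15 genes for lung mesenchyme signals 9 were above background on all arrays. Wnt5a gave 6.57 and 6.56 in Myc-depleted cells and 7.51 and 7.40 in control cells, Bmp4 gave 6.06 and 7.05 against 5.34 and 5.42, and Fgf10 and Wnt2, ligands of the distal lung mesenchyme, were above background on 3 arrays and 1 array. Of the 13 tested, limma called 0, and 2 had an unadjusted p under 0.05.

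**Figure D4:**
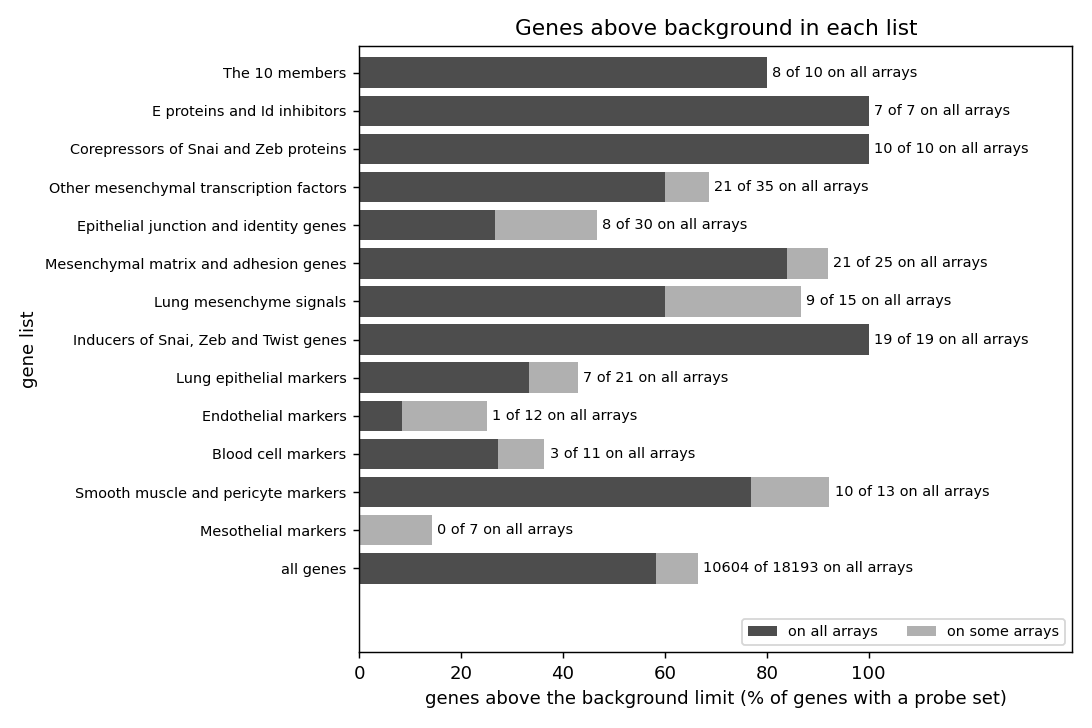
Share of genes above the background limit (horizontal axis, percent of the genes with a probe set) in each gene list (rows), split into genes above it on all 4 arrays (dark) and on some arrays (light). The 10 members reach 8 of 10 and mesenchymal matrix genes 21 of 25, beside 8 of 30 epithelial junction genes and 10604 of 18193 genes in all.

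Target genes of these factors and the matrix genes that accompany them were counted in the same way. Of 25 mesenchymal matrix and adhesion genes 21 were above background on all arrays, whereas 8 of 30 epithelial junction and identity genes were, with 16 on no array. The mean log2 level of the matrix list was 11.24 and 11.00 in Myc-depleted cells and 11.05 and 11.21 in control cells, and that of the junction list was 5.30 and 5.23 against 5.19 and 5.11. By limma 0 genes of either list were called, with 8 of 23 and 2 of 15 at an unadjusted p under 0.05. Among matrix genes Thy1, a fibroblast surface protein, was below background in Myc-depleted cells at 4.68 and 4.75 and above it in control cells at 6.02 and 5.92, and Pdgfra, a receptor of mesenchymal progenitors, gave 11.70 and 11.36 against 10.31 and 10.29. Their limma adjusted p were 0.263 and 0.282. Ppl, the desmosomal linker periplakin, was the junction gene with the smallest p, at 7.26 and 7.36 in Myc-depleted cells and 6.55 and 6.48 in control cells (limma adjusted p = 0.295).

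Markers of other cell types were also counted, and their part in the members' values was not tested. Smooth muscle and pericyte markers were above background on all arrays in 10 of 13 genes, and their mean log2 level was 8.07 and 8.11 in Myc-depleted cells and 8.46 and 8.32 in control cells. In 9 of the 12 tested both Myc-depleted arrays were below both control arrays, beside 20.8% of all genes tested, with Tagln at 11.36 and 12.12 against 12.80 and 12.67. Limma called 0 of the 12, and 3 had an unadjusted p under 0.05. Lung epithelial markers were above background on all arrays in 7 of 21 genes, endothelial markers in 1 of 12, blood cell markers in 3 of 11 and mesothelial markers in 0 of 7. The mean log2 levels of these lists lay between 4.46 and 5.66 in Myc-depleted cells and between 4.49 and 5.54 in control cells, and 0 of their genes were called or had an unadjusted p under 0.05. In arrays of whole cultures, a lower share of cells of one type and less RNA of a gene in each cell cannot be told apart.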

How the data were processed

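The deposited values are log2 expression values of 45101 probe sets, which the authors made from the scanner files in Partek 6.4. Their methods name Robust Multichip Average, whereas the submitters' processing notes name GCRMA. Which of the 2 procedures made the values was not tested, and they differ mainly for dim probe sets. The 64 array control probe sets were left out, and 27022 probe sets with a mean at or above the 40th percentile (log2 5.08) were tested. Gene names came from the platform annotation. Myc-depleted and control arrays, 2 each, were compared by lmFit and eBayes of limma (version 3.58.1, under R 4.3.3, with 2 residual degrees of freedom) with Benjamini-Hochberg adjustment over all probe sets tested, after a check on simulated data. The number of arrays limits the precision. Same-numbered arrays deviated in opposite directions (r = -0.766 over probe sets), so the numbers were not taken as pairs. All 10 members are named. Of other lists, up to 4 genes with the smallest p and fixed defining markers are named, and the E protein gene Tcf4 in addition. The members and lists were chosen with earlier results of these data known. Alternatives covered the filter, scaling, floor, variance model, test, probe sets per gene, block, spike-in covariate and each array left out.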

Additional observations from a re-analysis of the deposited data

How the results depend on the processing

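Of 264 alternative values for the member probe sets, 243 kept their direction and their side of the threshold, 20 changed sign and 1 passed it. The filters, floor, intensity trend, unmoderated model and replicate block left every difference they covered unchanged, so many of the 264 could not change sign. The sign changes came from leaving out an array and, in Prrx1 1425527_at, from the spike-in covariate. With the spike-in covariate, which left 1 residual degree of freedom, Zeb1 1446127_at was called (-0.99) and Prrx1 1425527_at turned to 0.090. The count called was 1 of the 20 member probe sets tested and 2820 of all 27022. The looser rule of fold above 2 with unadjusted p under 0.05 gave 316 probe sets. The replicate number as a block called 0 probe sets, and a crossed block (Myc-depleted 1 with control 2, Myc-depleted 2 with control 1), chosen after seeing the data, called 21, none of them members. The members' median difference of 0.136 was 0.083 with no filter, which adds the dim genes, and ranged from 0.035 to 0.156 when each array was left out, the lowest without Myc-depleted replicate 1. With any one array left out, 0 probe sets were called. Leaving out one array turned the sign of 12 member probe sets: Twist1 ranged from -0.074 to 0.41, Twist2 from -0.42 to 0.020, Snai2 1447643_x_at from -0.19 to 0.11, Zeb1 1446127_at from -1.76 to 0.086, Zeb2 1422748_at from -0.26 to 0.40, Zeb2 1434298_at from -0.045 to 0.14, Zeb2 1454200_at from -0.94 to 0.92, Zeb2 1458941_at from -0.79 to 0.43, Prrx1 1425526_a_at from -0.27 to 0.41, Prrx1 1425527_at from -0.77 to 0.70, Prrx1 1432129_a_at from -0.021 to 0.52 and Tbx5 1425694_at from -0.24 to 0.65. The 8 others kept their sign, among them Snai1 (0.13 to 0.56) and Zeb1 1418926_at (-0.45 to -0.24). The cause of these shifts was not tested.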
